A study of Homo sapiens with 6 samples.

Results

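The RASSF (RAS association domain family) genes were examined in RNA-seq libraries of HCT116 cells with and without oxaliplatin. The 10 genes RASSF1 to RASSF10 were taken by symbol from the deposited count table, with no measured value used, and all 10 were found among its 27942 genes. HCT116 is an established human colorectal carcinoma line, and oxaliplatin is a platinum drug that forms DNA adducts. The 3 treated libraries (OXA) came from cells that had received 0.5 µM oxaliplatin for 24 h, and the 3 control libraries (NT) came from non-treated cells of the same line after 24 h in culture. Each library was made from polyA RNA of total RNA from whole cultures. No source states that the replicates were separate cultures, so the p-values measure the spread between these libraries, which may be technical. All the libraries come from 1 cell line at 1 dose and 1 time, and protein was not measured in them.

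RASSF proteins are scaffolds that carry a RAS association domain. The C-terminal members RASSF1 to RASSF6 also end in a SARAH domain, through which they can bind the Hippo kinases MST1 and MST2, encoded by STK4 and STK3. The N-terminal members RASSF7 to RASSF10 carry the RAS association domain at the other end and have no SARAH domain, so the name MST-binding scaffold describes the C-terminal members. Several members are regarded as tumor suppressors, and RASSF1 and RASSF10 are known for silencing by promoter DNA methylation in tumors, a mark that was not measured in these libraries.

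The library totals lay between 32979521 and 40967880 counts, and 13727 genes passed the filter on low counts. NT library 1 stood apart, with a chi-square per gene of 83.1 and 75.7 against the other NT libraries, whereas the other pairs within a group lay between 19.2 and 29.6. Values without it are therefore given for the RASSF members where they bear on a result. The colon epithelial markers EPCAM, CDH1, KRT8, KRT18, KRT19, VIL1, CDX1 and CDX2 summed to between 2160 and 3102 CPM (counts scaled to the size of the library) in NT and between 3511 and 4150 CPM in OXA, with CDX1 at 0 in every library. The 10 markers of leukocytes, endothelium and fibroblasts summed to between 4.01 and 8.81 CPM in NT and between 5.62 and 8.33 CPM in OXA, and only VWF and COL1A1 passed the filter. The colon sums of the groups did not overlap, and the list did not move as 1. The folds of OXA over NT were 1.39 for KRT8, 1.24 for KRT18, 2.44 for KRT19 and 1.18 for CDX2. They were 0.973 for EPCAM, 0.873 for CDH1 and 0.767 for VIL1. All these folds include NT library 1. It held the lowest NT value of KRT8, KRT18, KRT19 and CDX2 and the highest of EPCAM, CDH1 and VIL1. At an edgeR adjusted p-value under 0.05, 0 of the 7 tested markers were called, against 5.07% of all genes tested. In the blocked fit described below, 3 were called as higher and 1 as lower, against 12.1% and 10.9% of all genes. The part of these differences in the results below was not tested. A lower count from whole cultures can come from fewer cells with the transcript or from less RNA per cell, and these cannot be told apart.

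The promoters of RASSF3 and RASSF6 are shown because these genes had estimates of opposite direction. Neither was called in the main comparison below (adjusted p in edgeR = 0.0723 and 0.115). RASSF8, the member called there, had no matched RefSeq entry. A link between promoter letters and direction was not tested. The sequences are the 250 bases before the RefSeq transcription starts on GRCh38.p14, written 5′ to 3′ on the strand of the gene, with every CG dinucleotide in capitals. RASSF6 has a pair of entries whose windows overlap. The RASSF3 window is chr12:64610245-64610494 on the plus strand, inside the longer gene model that GENCODE annotates, and the RASSF6 windows are chr4:73620632-73620881 and chr4:73620437-73620686 on the minus strand.
RASSF3: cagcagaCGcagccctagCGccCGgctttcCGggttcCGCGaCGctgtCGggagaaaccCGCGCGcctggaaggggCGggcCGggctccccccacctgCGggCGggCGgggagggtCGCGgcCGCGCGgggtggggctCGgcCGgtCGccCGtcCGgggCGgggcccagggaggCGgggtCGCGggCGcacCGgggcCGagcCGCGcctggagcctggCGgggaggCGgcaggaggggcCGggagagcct
RASSF6 upstream start: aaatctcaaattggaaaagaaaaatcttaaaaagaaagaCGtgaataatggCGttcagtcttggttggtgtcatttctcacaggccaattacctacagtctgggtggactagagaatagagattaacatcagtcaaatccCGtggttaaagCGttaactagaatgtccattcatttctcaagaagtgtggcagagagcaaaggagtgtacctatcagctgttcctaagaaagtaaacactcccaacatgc
RASSF6 downstream start: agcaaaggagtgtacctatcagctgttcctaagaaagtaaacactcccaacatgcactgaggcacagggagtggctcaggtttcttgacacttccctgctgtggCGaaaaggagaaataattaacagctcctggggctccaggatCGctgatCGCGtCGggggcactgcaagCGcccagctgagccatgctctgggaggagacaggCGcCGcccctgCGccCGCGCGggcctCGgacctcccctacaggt

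The RASSF3 window held 38 CG dinucleotides, and 96.7% of the 35116 RefSeq promoter windows of this length held fewer. The RASSF6 windows held 4 and 13, above 29.3% and 53.4% of all windows, and the median window held 11. RefSeq entries were matched for 7 of the 10 members, in 9 windows. The letters GGAATG, a core motif of the TEAD factors, were searched on both strands and stood in 2 of the 9 windows, at RASSF1 and at the second RASSF5 start, against 11.9% of all windows. The p53 consensus decamer was found in 0 of the 9 windows and in 5.57% of all windows. A match is a description of the letters and no evidence of a bound site.

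**Figure D1:**
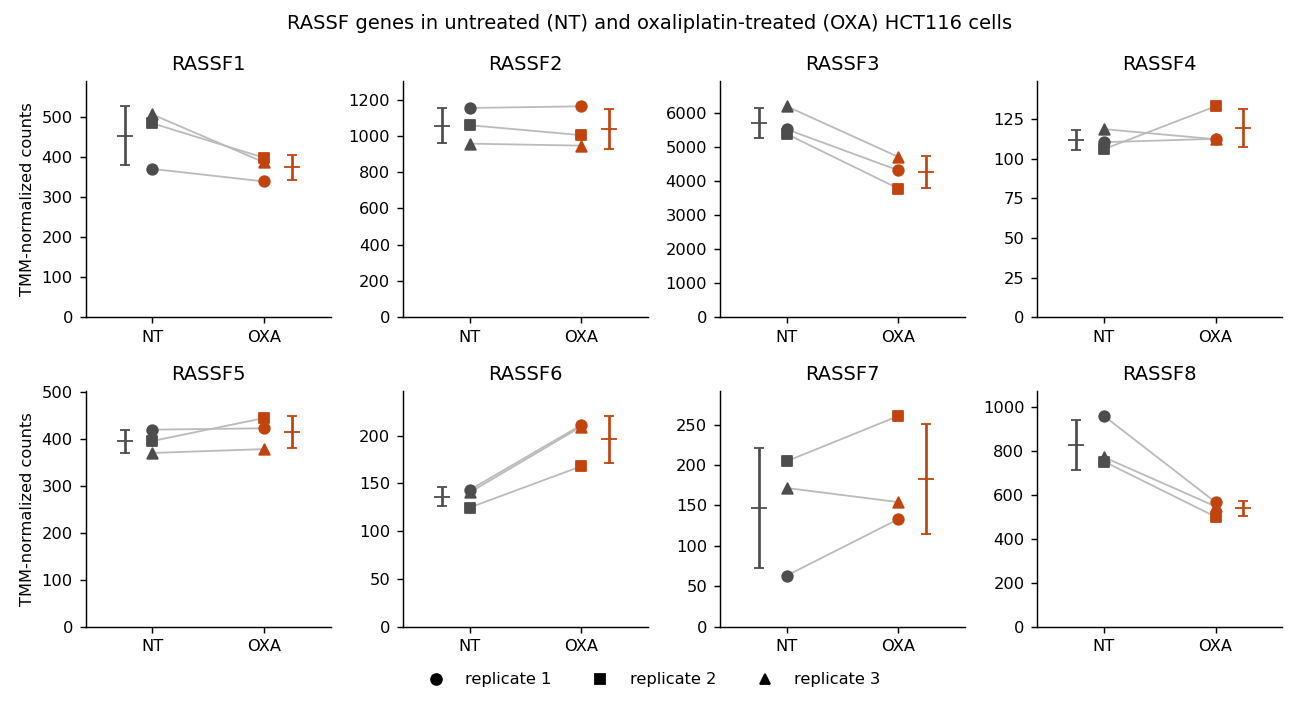
TMM-normalized counts of each tested RASSF member by library, with each group's mean and SD over 3 libraries beside the points and lines joining libraries of the same number. RASSF3 and RASSF8 sit lower in all 3 OXA libraries than in all 3 NT libraries, RASSF6 sits higher in all 3, and the groups of the other members overlap.

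Of the 10 members, 8 passed the filter, all 6 C-terminal members and 2 of the 4 N-terminal ones. At an edgeR adjusted p-value under 0.05, 1 of the 8 was called, RASSF8, which was lower in OXA. Over all genes tested, 5.07% were called, 2.29% as lower and 2.78% as higher. The other 7 members did not pass, and the number called as higher was 0 with edgeR, DESeq2 and limma-voom, against 1 at an unadjusted p-value under 0.05. The unadjusted threshold was passed by 3 of the 8 (37.5%), against 21.7% of all genes tested, and the NT and OXA values did not overlap for the same 3, against 28.9%. RASSF3 and RASSF8 were the 2 that lay lower (14.4% of all genes) and RASSF6 the 1 that lay higher (14.5%). The median log2 fold change of all genes tested was 0.023.

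RASSF8, at chr12:25958232-26079892 on the plus strand, is an N-terminal member linked to cell junctions. It had 961, 753 and 773 TMM-normalized counts in NT libraries 1, 2 and 3 and 568, 502 and 549 in OXA libraries 1, 2 and 3. All the OXA values lay below all the NT values. The means were 829 ± 115 and 539 ± 34.2 (SD, n = 3), a fold of 0.651 (log2 fold change -0.62, SE, the standard error, 0.13, 95% interval -0.93 to -0.31, adjusted p in edgeR = 0.0426). In a fit that also takes the shared replicate number as a block, called the replicate block here, it was -0.61 (adjusted p in edgeR = 0.00843). Without any 1 of NT libraries 2 and 3 or OXA libraries 1 to 3 the call was lost, with log2 fold changes between -0.72 and -0.57 and edgeR adjusted p-values between 0.0609 and 0.175, whereas without NT library 1 the log2 fold change was -0.50 and the adjusted p in edgeR 0.0261.

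The RASSF8 difference also depended on the scaling. The authors' normalized values multiply each raw count by a factor that differs between genes as well as libraries, and for RASSF8 they were 871, 855 and 617 in NT and 737, 824 and 607 in OXA. On this scale the groups overlapped. The RASSF8 factor, relative to the median factor of its library, was 0.887, 1.14 and 0.795 in NT and 1.32, 1.65 and 1.11 in OXA. The log2 ratio of its factors between OXA and NT was 0.53, at percentile 99.3 of 13658 genes. With these factors in the edgeR fit the log2 fold change was -0.11 (SE 0.18, adjusted p in edgeR = 0.790), and 3.21% of all genes were called in that fit. What the factor corrects for is not given in the sources used here, and its part in the difference was not tested.

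**Figure D2:**
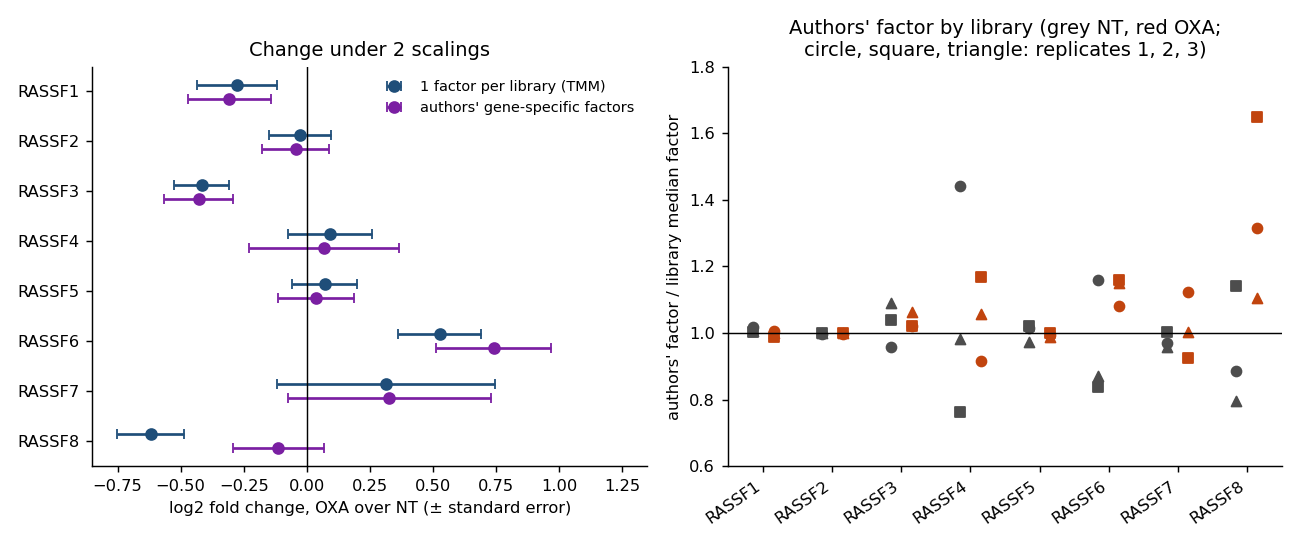
Left, log2 fold change of each tested member (OXA over NT, bars are the standard error) with 1 TMM factor per library and with the authors' gene-specific factors; right, the authors' factor divided by the median factor of its library. RASSF8 moves from -0.62 to -0.11, and its relative factors run from 0.795 to 1.14 in NT and from 1.11 to 1.65 in OXA.

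RASSF3, at chr12:64507001-64697564, is a C-terminal member that has been linked to p53 through MDM2. It had 5520.1, 5381 and 6196 TMM-normalized counts in NT and 4315, 3781 and 4710 in OXA, with no overlap between the groups. The means were 5699 ± 436 and 4269 ± 466 (SD, n = 3), a fold of 0.749. Its log2 fold change was -0.42 (SE 0.11, adjusted p in edgeR = 0.0723), which did not pass. With the replicate block the estimate was again -0.42 with an SE of 0.054, and it passed (adjusted p in edgeR = 0.00700). The log2 ratios within same-numbered pairs were -0.36, -0.51 and -0.40. It also passed with DESeq2 (adjusted p = 0.0270), with the stricter filter of CPM over 1 in 3 libraries (adjusted p in edgeR = 0.0480) and without NT library 1 (-0.44, adjusted p in edgeR = 0.0459). With the authors' factors the log2 fold change was -0.43 (adjusted p in edgeR = 0.137).

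RASSF6, at chr4:73571550-73620631, is a C-terminal member linked to apoptosis. It had 143, 125 and 141 TMM-normalized counts in NT and 211, 168 and 209 in OXA, again with no overlap. The means were 136 ± 9.97 and 196 ± 24.4 (SD, n = 3), a fold of 1.44 (log2 fold change 0.53, SE 0.17, adjusted p in edgeR = 0.115). With the block it passed (log2 fold change 0.52, SE 0.12, adjusted p in edgeR = 0.0310), but the blocked call was lost without the libraries numbered 2 (0.54, adjusted p in edgeR = 0.117) or those numbered 3 (0.48, adjusted p in edgeR = 0.0798). The within-pair log2 ratios were 0.56, 0.43 and 0.58, and without NT library 1 the unblocked estimate was 0.56 (adjusted p in edgeR = 0.0959). With the authors' factors the estimate was 0.74 (adjusted p in edgeR = 0.130), and with the block added it was 0.76 (adjusted p in edgeR = 0.0256).

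With the replicate block, 3 of the 8 tested members were called, RASSF3 and RASSF8 as lower and RASSF6 as higher. In the same fit 23% of all genes were called, 10.9% as lower and 12.1% as higher. With the block and the authors' factors together, RASSF3 and RASSF6 were called, 2 of the 8, against 18.1% of all genes.

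**Figure D3:**
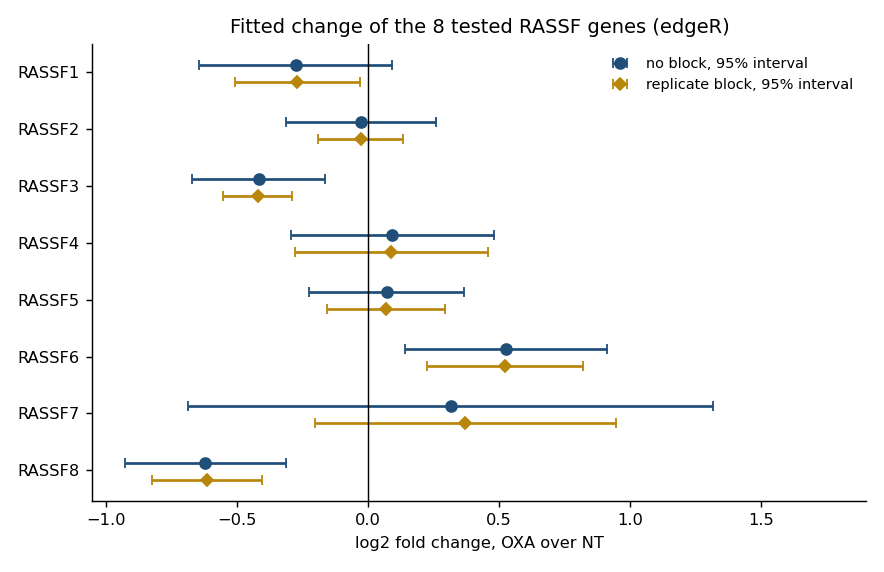
Log2 fold change (OXA against NT) of each tested member with 95% intervals, from the edgeR fits without and with the replicate block. The estimates of the fits lie close together (RASSF3 at -0.42 in both), and the intervals with the block are narrower.

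RASSF1, at chr3:50329782-50340980 on the minus strand, encodes the best known member. It had 371, 485 and 507 TMM-normalized counts in NT and 340, 399 and 388 in OXA. The groups overlapped, because NT library 1 lay below OXA libraries 2 and 3, while each OXA library was lower than the NT library of the same number. Its log2 fold change was -0.28 (SE 0.16, 95% interval -0.64 to 0.090, adjusted p in edgeR = 0.366), and -0.27 with the block (adjusted p in edgeR = 0.0987). Without NT library 1 it was -0.40 (adjusted p in edgeR = 0.0883). With the block and both libraries numbered 1 left out it was -0.34 and passed (adjusted p in edgeR = 0.00189). It did not pass without those numbered 2 (-0.29, adjusted p in edgeR = 0.372) or 3 (-0.21, adjusted p in edgeR = 0.373). The share of all genes called in these fits was not counted, so the pass is no result about RASSF1. Its isoforms, among them RASSF1A and RASSF1C, are summed in the table.

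RASSF2, RASSF4 and RASSF5 complete the C-terminal class. RASSF5, also known as NORE1 or RAPL, is known for linking RAP1 to MST1 in lymphocytes. Raw counts lay between 921 and 1129 for RASSF2, between 102 and 130 for RASSF4 and between 381 and 425 for RASSF5 over the 6 libraries. Their log2 fold changes were -0.026 (95% interval -0.31 to 0.26), 0.094 (-0.29 to 0.48) and 0.071 (-0.23 to 0.37), with edgeR adjusted p-values between 0.799 and 0.928. These intervals lie within a 1.5-fold change in either direction, and they do not show that the levels were equal. On the opposite strand DEPP1 lies within RASSF4 with 45 to 110 raw counts, and EIF2D overlaps RASSF5 with 2384 to 3364. GENCODE places 18 genes over the members, of which DEPP1, EIF2D and, at RASSF7, LMNTD2 were the 3 with counts to give. The other 15, among them RASSF8-AS1, RASSF1-AS1, RASSF3-DT, SNORD83 and TMEM72-AS1, were not analysed here. The strand setting of the counting is not given in the sources used here, so reads of such overlapping genes cannot be told apart.

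RASSF7, at chr11:560404-564025, is an N-terminal member linked to the mitotic spindle. It had 63.4, 205 and 172 TMM-normalized counts in NT and 133, 261 and 154 in OXA. Its log2 fold change of 0.31 had the widest interval among the tested members (-0.69 to 1.32, adjusted p in edgeR = 0.728). NT library 1 was the lowest of the 6, and without it the log2 fold change was -0.044. With the block and both libraries numbered 3 left out it was 0.66 and passed (adjusted p in edgeR = 0.0137), whereas without those numbered 1 it was 0.11. The share of all genes called with a pair left out was not counted, so this pass is no result about RASSF7. LMNTD2, on the opposite strand, overlaps RASSF7 and had 2 to 13 raw counts.

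RASSF9, linked to recycling endosomes, was listed with raw counts of 1, 0 and 1 for NT and of 2, 1 and 0 for OXA. RASSF10 had 0 in all 6 libraries, which at 3 counts allows up to 0.0743 to 0.0909 CPM, a limit for counting error only. A difference was not detectable for either gene at this depth.

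**Figure D4:**
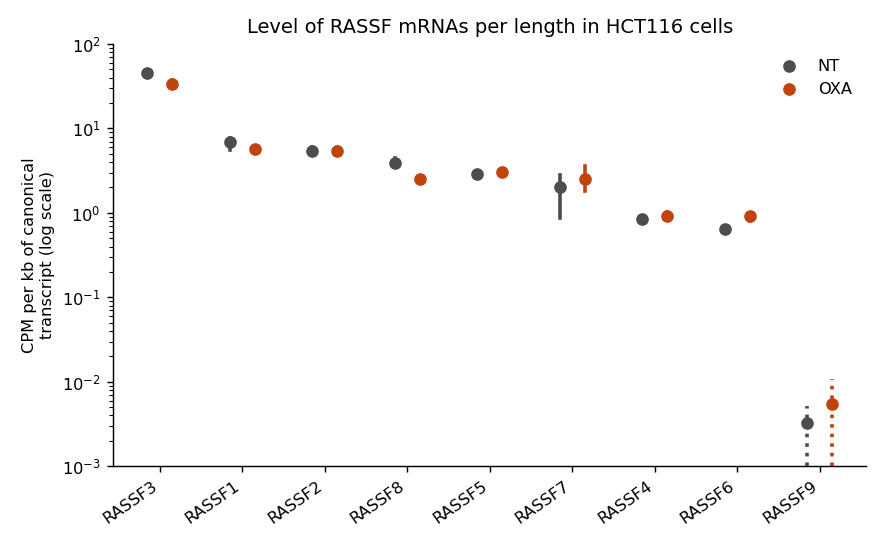
Level of each member per length (CPM per kilobase of the canonical transcript) in NT and OXA on a log axis, with points for the mean and lines for the lowest to the highest of 3 libraries (dotted where the lowest is 0). RASSF10, at 0, is not drawn. RASSF3 stands above the other members, at 45.2 in NT and 33.8 in OXA.

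Levels of different members were compared per length, as CPM per kilobase of the canonical GENCODE transcript. The transcripts in use were not measured, so the levels and shares depend on this choice beyond the library ranges given. Annotated coding transcripts run from 192 to 3507 bases for RASSF3 and from 523 to 5980 for RASSF8. RASSF3 was highest, at 45.2 ± 3.46 in NT and 33.8 ± 3.69 in OXA (SD, n = 3). It made up 66.6% of the summed level of the family per length in NT (64.6% to 68.3%) and 61.7% in OXA (57.5% to 65.1%). In NT it was followed by RASSF1 (6.84 ± 1.10), RASSF2 (5.45 ± 0.507), RASSF8 (3.85 ± 0.532), RASSF5 (2.89 ± 0.182), RASSF7 (2.02 ± 1.02), RASSF4 (0.855 ± 0.049) and RASSF6 (0.643 ± 0.047). The neighbours RASSF1 and RASSF2, RASSF5 and RASSF7, and RASSF7 and RASSF4 overlapped in their library values. In OXA, RASSF8 stood at 2.51 ± 0.159 and RASSF6 at 0.927 ± 0.115. There RASSF1 overlapped RASSF2, RASSF7 overlapped RASSF5 and RASSF8, and RASSF6 overlapped RASSF4.

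The mRNAs of STK3, STK4 and SAV1, whose proteins share the SARAH domain with the C-terminal members, were tested in the same fit. STK3 had 2360, 1861 and 1676 TMM-normalized counts in NT and 2075, 1761 and 1678 in OXA (log2 fold change 95% interval -0.44 to 0.25). The interval was -0.31 to 0.11 for STK4 and -0.11 to 0.33 for SAV1, the scaffold that pairs with MST1 and MST2. None of the 3 passed in the edgeR fit without or with the block.

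Of 16 tested genes of the Hippo core and its outputs, 0 were called by edgeR, DESeq2 or limma-voom. In edgeR 3 had an unadjusted p-value under 0.05. The shares of all genes in that fit were 5.07% and 21.7%, so 0 of 16 is no result about the list. The median log2 fold change of the list was -0.0017. With the block, NF2, WWC1 and WWTR1 were called as higher and FRMD6 and TEAD1 as lower, 5 of 16 (31.2%) against 23% of all genes in that fit. The next list held 16 tested genes of the STRIPAK phosphatase complex, which acts against MST1 and MST2, and of upstream MST regulators. Of these, 0 were called by edgeR, DESeq2 or limma-voom, and 2 passed the unadjusted threshold in edgeR, against the same 5.07% and 21.7%. With the block SLMAP was called as higher (adjusted p in edgeR = 0.0351) and STRN as lower (adjusted p in edgeR = 0.0228), 2 of 16 (12.5%) against the same 23%, and the median of the list without the block was 0.031.

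Of 11 tested RAS and RAP GTPases, the proteins that RAS association domains can bind, RAP2B was called as higher and 0 as lower. That is 9.09% of the list, against 5.07% of all genes tested. The normalized counts of RAP2B were 2290 ± 86.1 without and 3208 ± 134 with oxaliplatin (SD, n = 3).

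Of 12 tested partner genes around the family, 4 were called as higher and 0 as lower, against 2.78% and 2.29% of all genes tested. The median log2 fold change of the list was 0.15. The list was written with earlier results of these data known, so its count is a description and no evidence about the family. With the replicate block 4 of 12 (33.3%) were called, against 23% of all genes. With the authors' factors in edgeR it was 3 of 12 (25%), against 3.21%. MDM2, the p53 ubiquitin ligase, stood at 6940, 5502 and 6425 normalized counts in NT libraries and at 32503, 27231 and 28204 in OXA libraries. XPC, a DNA damage recognition factor, rose from 2052 ± 185 to 3422 ± 166 (SD, n = 3, log2 fold change 0.74, SE 0.098, adjusted p in edgeR = 0.00936). AJUBA, a LIM protein that can bind LATS kinases, rose from 1023 ± 49.7 to 1579 ± 148 (SD, n = 3, log2 fold change 0.63, SE 0.11, adjusted p in edgeR = 0.0210). BAX, a pro-apoptotic effector, was the other gene called (log2 fold change 1.19, SE 0.22).

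**Figure D5:**
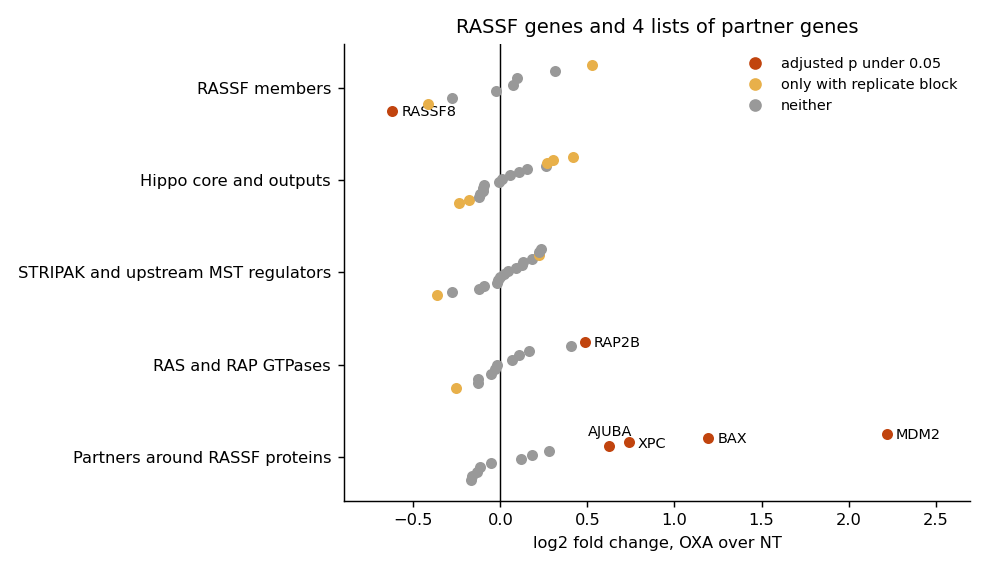
Log2 fold changes of the tested genes of each list and of the RASSF members, with genes of an edgeR adjusted p-value under 0.05 in red and those under it only with the replicate block in yellow. The Hippo genes range from -0.24 to 0.42 and the partner list reaches 2.22 at MDM2.

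Over the 6 libraries, the genes whose log2 CPM was most like that of RASSF8 were POLA1 (Pearson r = 0.9994), RNF219 (0.9984) and STMN1 (0.9982). They are the highest correlations among all genes that passed the filter, on the TMM scale, and the authors' factors were not used for them. The 6 points share libraries and scaling, and the values are a description.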

How the data were processed

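Per the submitters' processing notes, Trimmomatic 0.32, STAR 2.7.5b, RSEM 1.3.3 and DESeq2 2.13 were used with GRCh38. The gene annotation and the strand setting of the counting are not given in the sources used here. The authors deposited an estimated count per gene and library (all whole numbers, used as deposited) and a normalized signal, which was used only for alternatives.

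Genes were filtered with filterByExpr (minimum count 10, minimum total 15), scaled by TMM and compared with the quasi-likelihood test of edgeR 4.0.16 (R 4.3.3, limma 3.58.1, DESeq2 1.42.0), without a block, and p-values were adjusted by Benjamini-Hochberg across the 13727 genes that passed. Steps were tested on simulated data. Positions and transcript lengths came from GENCODE 44, and promoters from RefSeq.

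Same-numbered libraries deviated together (r = 0.547, 0.542 and 0.307, against -0.467 to 0.0904 for other pairings). The numbers come from the labels, which do not say what they stand for, and the blocked fit is given where it changes a call.

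The members and lists were chosen with earlier results of these data known. Named were all members, STK3, STK4 and SAV1, list genes with an adjusted p-value under 0.05 (at most 6 a list), the 3 genes most like the member of smallest p and genes overlapping a member, as far as they had counts. Other genes, such as those called only with the block, were named after their values were seen. Not every list gene is reported here. Alternatives were median-of-ratios scaling, other filters, DESeq2, limma-voom, the block, the authors' factors and leaving out each library. A newer edgeR default, the block or DESeq2 with the authors' factors, and leaving out pairs were chosen after seeing the data.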

Additional observations from a re-analysis of the deposited data

How the results depend on the processing

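The number of RASSF members called, 1 of 8, was also 1 with median-of-ratios scaling, no filter, limma-voom and the newer edgeR default. It was 2 with a filter of CPM over 1 in 3 libraries, 2 with DESeq2, 3 with the replicate block, 2 with the block and the authors' factors, and 0 with the authors' factors in edgeR or in DESeq2. Leaving out 1 library gave 0 to 2, with 2 only without NT library 1. Genes of the 4 lists called numbered 5, 13 with the replicate block, 10 with the block and the authors' factors, and 1 to 5 with 1 library left out. All genes called numbered 696 (381 higher, 315 lower), 1187 with DESeq2, 3157 with the replicate block, 441 with the authors' factors, 2484 with the block and these factors, and 85 (without OXA library 1) to 1194 (without NT library 1) with 1 library left out. The CPM filter gave 842 (363 higher, 479 lower).

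The direction of RASSF3, RASSF6 and RASSF8 held in each alternative run. Of the 10 alternative settings that kept all libraries, RASSF8 was called in 7, RASSF3 in 4 and RASSF6 in 2. RASSF8 was called in none of the 3 that used the authors' factors. RASSF3 was called in 1 of 6 fits with 1 library left out, without NT library 1 (edgeR adjusted p = 0.0459). Signs turned without a call for RASSF2 (0.042 without NT library 1, 0.0035 without OXA library 3; range -0.13 to 0.042), RASSF5 (-0.0058 without NT library 3; range to 0.12) and RASSF7 (-0.044 without NT library 1, -0.028 without OXA library 2; range to 0.61). With the block and pair 2 left out, RASSF4 was at -0.059 and RASSF5 at -0.011. With the block and 1 pair left out, RASSF3 and RASSF8 were called in 3 of 3 fits and RASSF1, RASSF6 and RASSF7 in 1 of 3. The share of all genes called in these fits was not counted, so these calls are no result about the members. The cause of these moves in sign and call was not tested. With 3 libraries a group, changes can be missed, and the intervals give the sizes of change that the libraries leave possible.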
